A study of Homo sapiens with 9 samples.

Results

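Of the 59648 gene symbols in the count files, 10 make up the group described here: the DNA methyltransferases DNMT1, DNMT3A and DNMT3B, the methylation cofactors UHRF1 and UHRF2, the 5-methylcytosine oxidases TET1, TET2 and TET3, and the isocitrate dehydrogenases IDH1 and IDH2. They were taken by symbol alone, all 10 were in every file, and all 10 passed the filter on low counts that left 14741 genes for testing. RNA was sequenced in 9 libraries from Kasumi-1 cells, an established human line of acute myeloid leukaemia. It carries the t(8;21) translocation, which fuses RUNX1 to RUNX1T1 and so makes the AML1-ETO protein (AE). The AE knockdown group held 3 libraries with AE shRNA, labelled 1 to 3. The LYL1 knockdown group held 3 libraries with LYL1 shRNAs 538, 540 and 542, and the control group 3 libraries with a control shRNA. LYL1 is a basic helix-loop-helix factor of blood cells. All groups shared the cell line, infection with an shRNA lentivirus for 48 h, puromycin selection at 1 µg/mL for a further 48 h, and RNA taken on day 4. The labels name no separate cultures, so the p-values measure the spread between these libraries, which may be technical. With LYL1 knockdown this spread also takes in any difference between the 3 shRNAs, including strength of knockdown, as each had 1 library. It is not stated if 1 AE shRNA or several were used.

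DNA methylation at CpG sites is copied after each round of DNA replication by DNMT1, which UHRF1 brings to half-methylated DNA by reading the old strand and ubiquitinating histone H3. DNMT3A and DNMT3B set methylation on sites that lacked it. TET enzymes oxidise 5-methylcytosine, which leads to its loss, and they need 2-oxoglutarate, the product of IDH1 in the cytosol and of IDH2 in mitochondria. In acute myeloid leukaemia DNMT3A, TET2, IDH1 and IDH2 are recurrently mutated genes.

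Library totals ranged from 20103275 to 28039518 counts, and the members' counts per library from 163 for DNMT3B to 13126 for DNMT1. Levels are given in CPM, a gene's counts relative to the library total after TMM scaling. RUNX1T1, read first as the check of the AE shRNA and counted with the reads of both the fusion and the normal gene, lay at 52.6%, 63.0% and 40.5% of the control mean in AE knockdown replicates 1, 2 and 3. RUNX1, whose row also mixes reads of the fusion and the normal gene, lay at 63.5%, 61.0% and 52.3% in these libraries. Its log2 fold change with AE knockdown was -0.76 (edgeR adjusted p = 0.0129). Loss of the fusion and of the normal RUNX1 cannot be told apart in these counts. LYL1 lay at 49.5%, 60.5% and 27.0% of the control mean with shRNAs 538, 540 and 542. AE knockdown replicate 3 stood apart: on the first principal component it lay at 110, against 50.2 and 32.7 in AE replicates 1 and 2, -41.8 to -25.6 in the LYL1 knockdown libraries and -33.7 to -32.1 in the controls. The 8 myeloblast markers, among them KIT and MPO, were all above 1 CPM in every library. Of these 8, CD33, ANPEP and PTPRC rose with AE knockdown (log2 fold changes 2.01, 1.49 and 1.35) and POU4F1 fell (-0.53), with a list median of 0.90. CD33 lay at 125 ± 44.3 CPM with AE knockdown and 31.2 ± 3.05 CPM in controls (SD, n = 3). The 8 markers, of which MPO made up most, summed to 18168 to 34902 CPM in AE knockdown, 12922 to 17886 CPM in LYL1 knockdown and 19059 to 22062 CPM in control libraries. Of 7 erythroid markers 4 to 6, of 9 stromal and epithelial markers 6 to 8, and of 8 lymphoid markers 2 or 3 had 0 counts in a library. Their summed levels stayed at or below 10.1 CPM for the erythroid and 1.69 CPM for the stromal and epithelial list. At 0 in every library were CD3G and MS4A1 of the lymphoid and HBA1, HBA2 and SLC4A1 of the erythroid list. The lymphoid sum was 5.81 to 38.8 CPM in AE knockdown, with the highest in replicate 3, 5.10 to 8.55 CPM in LYL1 knockdown and 9.36 to 11.9 CPM in control libraries. In it NKG7 rose (log2 fold change 5.08) and CD3D fell (-3.23) with AE knockdown. The part of these marker changes in the results was not tested.

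The promoters of 4 genes that changed with AE knockdown are shown because they differ in the binding letters they hold. The windows are 300 bases long, from 250 before to 50 after a start listed by RefSeq (GRCh38.p14), written 5′ to 3′ on the gene's strand. Capitals mark matches, on either strand, to TTTNNCGC, a form of the site of the E2F factors that drive S phase genes, or to TGTGGT, the core of the RUNX site that the DNA-binding part of AE recognises. All 10 genes had a window (22 windows in all), and where a gene had several, a window with a match was taken for display.
UHRF1, chr19:4909251-4909550, plus strand: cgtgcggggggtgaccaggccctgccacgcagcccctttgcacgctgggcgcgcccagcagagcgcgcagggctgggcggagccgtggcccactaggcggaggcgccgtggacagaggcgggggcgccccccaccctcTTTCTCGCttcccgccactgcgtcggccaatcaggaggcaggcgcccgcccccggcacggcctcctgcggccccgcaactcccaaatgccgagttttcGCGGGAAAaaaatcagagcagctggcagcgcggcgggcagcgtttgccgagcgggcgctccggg
DNMT1, chr19:10194904-10195203, minus strand: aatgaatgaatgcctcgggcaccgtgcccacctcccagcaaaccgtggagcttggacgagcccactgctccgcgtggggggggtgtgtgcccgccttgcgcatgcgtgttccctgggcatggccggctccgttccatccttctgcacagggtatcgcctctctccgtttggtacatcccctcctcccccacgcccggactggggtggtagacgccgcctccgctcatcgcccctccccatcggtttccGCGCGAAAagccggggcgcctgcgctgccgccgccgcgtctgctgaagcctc
UHRF2, chr9:6412949-6413248, plus strand: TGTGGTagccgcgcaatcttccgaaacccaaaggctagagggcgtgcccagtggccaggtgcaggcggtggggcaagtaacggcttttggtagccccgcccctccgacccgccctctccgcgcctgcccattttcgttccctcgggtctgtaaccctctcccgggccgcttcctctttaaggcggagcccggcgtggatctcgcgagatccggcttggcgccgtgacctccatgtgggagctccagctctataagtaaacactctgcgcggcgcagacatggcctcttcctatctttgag
TET1, chr10:68600224-68600523, plus strand: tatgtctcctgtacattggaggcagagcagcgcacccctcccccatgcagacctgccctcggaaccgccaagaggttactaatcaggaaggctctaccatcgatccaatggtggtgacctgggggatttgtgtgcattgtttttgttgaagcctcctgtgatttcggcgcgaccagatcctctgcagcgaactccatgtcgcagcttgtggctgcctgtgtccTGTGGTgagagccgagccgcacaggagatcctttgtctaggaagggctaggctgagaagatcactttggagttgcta

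The E2F letters stood in the DNMT1 window and in 2 of 3 UHRF1 windows, and in none of the windows of the other 8 genes. In the windows of all annotated genes they stood in 6.89% of 35116. Counted by gene, 8.23% of 27305 genes had a window with them. Counted from the start, the match in the DNMT1 window began at -2, and those in the UHRF1 window shown at -112 and -14. The RUNX letters stood in the UHRF2 window at -250, in 2 of 3 TET1 windows and in 1 of 2 IDH1 windows. They stood in 13.1% of all windows, and 15.6% of all genes had a window with them. The UHRF2 window and the TET1 window shown thus share the RUNX letters, and their genes changed in opposite directions with AE knockdown. The first TET1 window listed, chr10:68560087-68560386, held neither motif. DNMT3A, which also changed, held neither motif in its 6 windows. A match describes letters in the window and shows no binding.

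AE knockdown against control asks how the methylation machinery of these cells depends on the fusion. UHRF1, DNMT1, TET1 and DNMT3A fell and UHRF2 rose, while DNMT3B, TET2, TET3, IDH1 and IDH2 did not pass the test. These are 5 of 10 genes called, 1 higher and 4 lower, by edgeR at an adjusted p below 0.05. Of all genes tested 21.3% were called, 11.1% higher and 10.2% lower, and 36.8% had an unadjusted p below 0.05. The median log2 fold change of the 10 genes was -0.25, against 0.05 over all genes tested. In these bulk samples, fewer cells that express a gene and less RNA per cell cannot be told apart.

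**Figure D1:**
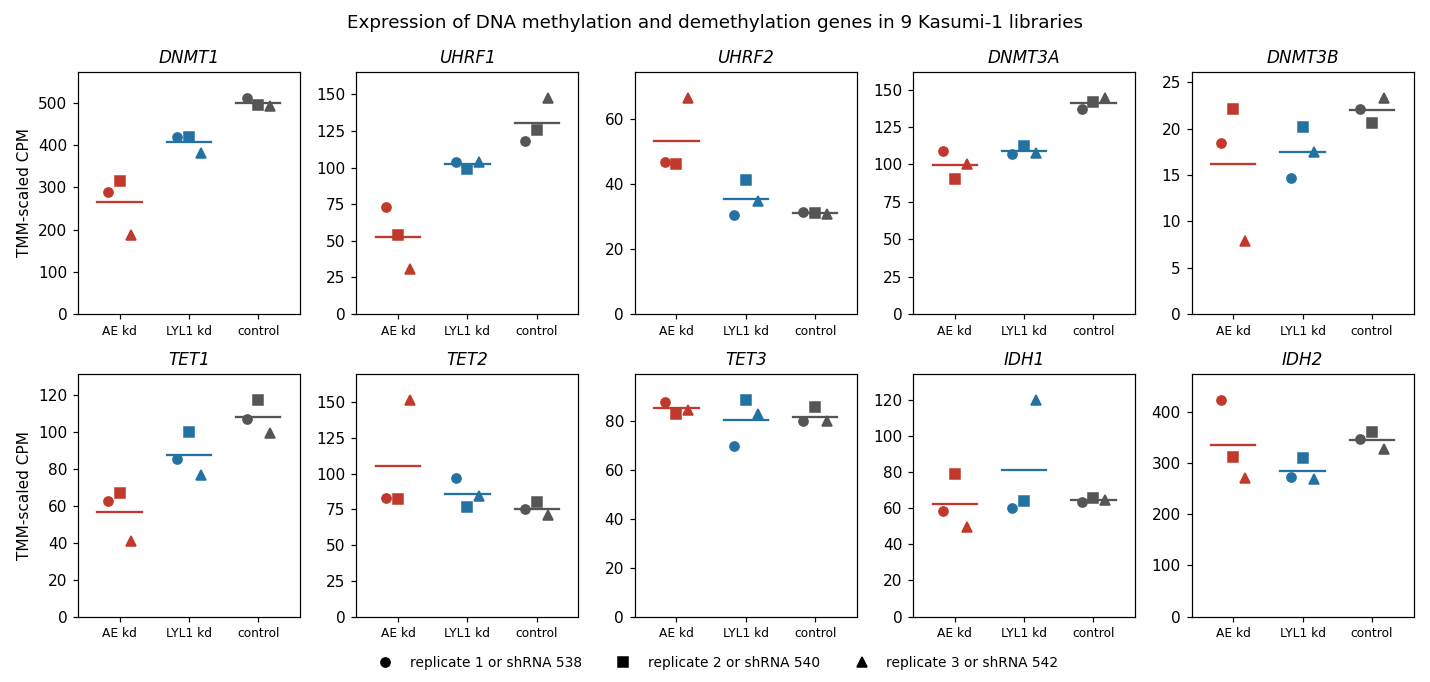
Level of each gene in TMM-scaled CPM (vertical axes, from 0) in the AE knockdown, LYL1 knockdown and control libraries; points are libraries and lines the means of 3. UHRF1, DNMT1, TET1 and DNMT3A lie lower and UHRF2 higher in all 3 AE knockdown libraries than in the controls, and IDH1 has 1 high library, that of LYL1 shRNA 542 at 120 CPM.

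UHRF1, the reader of half-methylated DNA, had the largest fold change of the 10 genes. It lay at 73.1, 54.0 and 30.9 CPM in AE knockdown replicates 1, 2 and 3, against 118, 126 and 148 CPM in control replicates 1, 2 and 3. The groups did not overlap, and replicate 3 held 23.7% of the control mean. UHRF1 fell by 1.31 on the log2 scale (SE 0.25, edgeR adjusted p = 0.00753), and 3.58% of all genes tested had a lower fold change. Without AE knockdown replicate 3 the log2 fold change was -1.05 (edgeR adjusted p = 0.00214).

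DNMT1, the maintenance methyltransferase, lay at 290, 316 and 187 CPM in the AE knockdown libraries, against 512, 494 and 492 CPM in the controls. The AE knockdown libraries thus held 58.0%, 63.2% and 37.5% of the control mean, with replicate 3 again lowest. This is a log2 fold change of -0.92 with an SE of 0.18 (edgeR adjusted p = 0.00896), and -0.74 without AE knockdown replicate 3.

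UHRF2 is the paralog of UHRF1 and shares its domains, but in mouse cells it has been described as unable to stand in for it in methylation upkeep. It went the other way, at 46.7, 46.3 and 66.5 CPM in the AE knockdown libraries, against 31.4, 31.1 and 30.8 CPM in the controls. The 3 control values lay within 1 CPM of each other and below every AE knockdown value. On the log2 scale UHRF2 rose by 0.77 (SE 0.17, edgeR adjusted p = 0.0135). Without control replicate 1, 2 or 3 the edgeR adjusted p of UHRF2 was 0.0568, 0.061 and 0.0595, at log2 fold changes of 0.77, 0.77 and 0.76, in fits where the calls over all genes numbered 1019, 869 and 948, against 3135 with all libraries.

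The balance of the UHRF pair was read within each library, where the scaling of the library plays no part. The log2 ratio of UHRF1 to UHRF2 CPM was 0.65, 0.22 and -1.11 in the AE knockdown libraries, against 1.91, 2.02 and 2.26 in the controls. The group means differed by -2.14, and the groups did not overlap. An exact two-sided permutation test gave p = 0.1, the smallest that 3 against 3 libraries allow (adjusted p = 0.191 over 21 ratio comparisons). Per kilobase of exon, with AE knockdown, UHRF1 lay at 10.2 ± 4.11 CPM per kilobase against 5.36 ± 1.17 CPM per kilobase for UHRF2 (SD, n = 3).

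UHRF1 and DNMT1 are expressed mainly in cycling cells, so the DNA replication genes are given beside them. Of 39 replication genes tested 1 rose and 6 fell with AE knockdown, with a median log2 fold change of -0.39, where 21.3% of all genes tested were called and their median was 0.05. In both directions together, the share of replication genes called in this fit was thus below that of all genes. By direction, 6 of 39 fell, where 10.2% of all genes tested did, and 1 of 39 rose, where 11.1% did. Those with the smallest adjusted p were RPA3, a subunit of the single-strand binding protein RPA (0.80), RFC1, a clamp loader subunit (-0.85), SLBP, the histone mRNA binding protein (-0.58), and CHAF1B, a histone chaperone (-1.15). The level summed over all 39 genes was 4980, 5832 and 3310 CPM in AE knockdown replicates 1, 2 and 3, against 6298, 6366 and 6322 CPM in the controls. Replicate 3, which had the lowest UHRF1 and DNMT1, thus also had the lowest replication sum. The counts of called replication genes vary with single libraries. Without AE knockdown replicate 2 they were 1 higher and 20 lower, without control replicate 1 they were 1 and 3, without control replicate 2 they were 1 and 1, and without control replicate 3 they were 0 and 1. By limma-voom they were 1 higher and 15 lower. Calls over all genes varied too, from 869 to 4135 over the alternatives, against 3135 in the fit as reported. The 21 of 39 called without AE knockdown replicate 2 were a larger share than any alternative gave over all genes, at most 4135. The lower share in the fit as reported thus does not hold in every alternative. The other replication counts were not set against the share of all genes called in the same fit.

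Relative to the mean log2 level of the 39 replication genes in the same library, UHRF1 lay at -0.10, -0.85 and -0.85 in the AE knockdown libraries, against 0.25, 0.32 and 0.58 in the controls. The difference of means was -0.98. DNMT1 on this scale lay at 1.89, 1.697 and 1.74 with AE knockdown, against 2.37, 2.30 and 2.31 in the controls, a difference of -0.55. Neither gene overlapped between the groups, and both exact permutation tests gave p = 0.1, the smallest possible (adjusted p = 0.191 for each). Replicate 1 had the highest value of both genes among the AE knockdown libraries. The part of the replication level in the UHRF1 and DNMT1 values was not tested further. UHRF1 relative to DNMT1 overlapped between the groups, at -1.99, -2.55 and -2.60 with AE knockdown and -2.11, -1.97 and -1.73 in the controls.

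**Figure D2:**
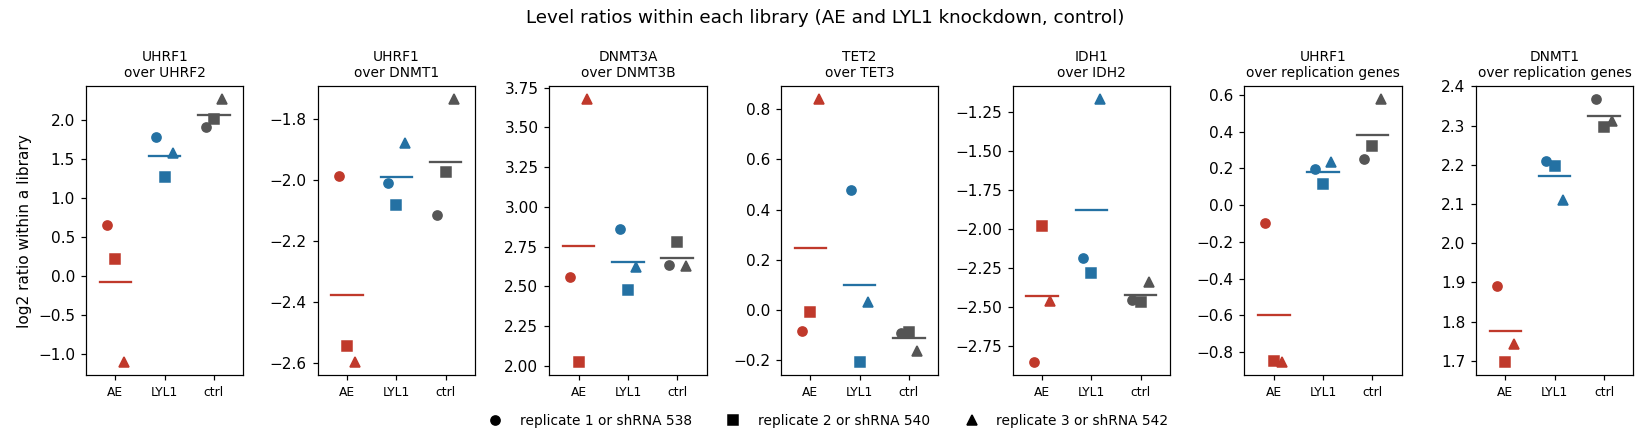
Log2 ratio of 2 levels within the same library (vertical axes, each on its own scale) for 7 pairs, in AE knockdown, LYL1 knockdown and control libraries; points are libraries and lines the means of 3. The ratio of UHRF1 to UHRF2 averages -0.08 with AE knockdown, 1.54 with LYL1 knockdown and 2.06 in the controls, while that of DNMT3A to DNMT3B has overlapping groups.

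Of the de novo enzymes, DNMT3A lay at 109, 89.9 and 101 CPM in the AE knockdown libraries, against 137, 142 and 145 CPM in the controls. It varied little within either group, and replicate 3 was not the lowest AE knockdown library. The test gave a log2 fold change of -0.50 (SE 0.12, edgeR adjusted p = 0.0165). The adjusted p was 0.0607, 0.0725 and 0.0667 without control replicate 1, 2 or 3.

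DNMT3B, the other de novo enzyme, lay at 18.5, 22.1 and 7.83 CPM with AE knockdown, against 22.1, 20.6 and 23.3 CPM in the controls. AE knockdown replicate 2 lay within the control range and replicate 3 far below it. The log2 ratio of DNMT3A to DNMT3B within a library was 2.56, 2.02 and 3.68 with AE knockdown, on both sides of the 2.63, 2.78 and 2.63 of the controls. The log2 fold change of -0.44 had a 95% interval of -1.10 to 0.22 (edgeR adjusted p = 0.307), and it was -0.13 without AE knockdown replicate 3.

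Of the 3 TET genes 1, TET1, passed the test with AE knockdown. TET1, which binds CpG-rich DNA through a CXXC domain, lay at 62.6, 66.6 and 41.0 CPM with AE knockdown, against 107, 117 and 99.4 CPM in the controls. Every AE knockdown library was below every control, and TET1 fell by 0.92 on the log2 scale (SE 0.19, edgeR adjusted p = 0.00913), or by 0.75 without AE knockdown replicate 3.

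TET2, the family member most often mutated in myeloid leukaemia, lay at 82.7, 82.4 and 151 CPM with AE knockdown, against 75.1, 80.4 and 71.2 CPM in the controls. AE knockdown replicates 1 and 2 lay just above the highest control, and replicate 3 stood far above both. With AE knockdown TET2 had a log2 fold change of 0.48 with a 95% interval of -0.0046 to 0.97 (edgeR adjusted p = 0.139), and it was 0.11 without replicate 3. Both TET2 and UHRF2 were thus above all controls in all 3 AE knockdown libraries, as were 23.1% of all genes tested, and UHRF1, DNMT1, DNMT3A and TET1 were below, as were 22.2% of all genes tested. Together that is 6 of 10 genes whose groups did not overlap, against 45.2% of all genes tested.

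TET3, the third oxidase, varied least of the 10 genes among the AE knockdown libraries, at 87.8, 82.9 and 84.5 CPM, against 80.0, 85.4 and 79.7 CPM in the controls. The groups overlapped, and the log2 fold change of 0.06 had a 95% interval of -0.22 to 0.33 (edgeR adjusted p = 0.765). The log2 ratio of TET2 to TET3 within a library was -0.09, -0.01 and 0.84 with AE knockdown, against -0.09, -0.09 and -0.16 in the controls. The first value lay above the highest control only in the third decimal. The difference of means was 0.36, and 0.07 without replicate 3.

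The isocitrate dehydrogenases did not pass the test in AE knockdown either. IDH2, the mitochondrial enzyme, lay at 423, 312 and 271 CPM with AE knockdown, against 348, 362 and 327 CPM in the controls. The AE knockdown libraries lay on both sides of the control range. IDH2 had a log2 fold change of -0.04 with a 95% interval of -0.42 to 0.33 (edgeR adjusted p = 0.874).

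IDH1, the cytosolic enzyme, lay at 58.5, 79.0 and 49.3 CPM with AE knockdown, against 63.4, 65.4 and 64.6 CPM in the controls. The 3 control values were close together while the AE knockdown values again lay on both sides of them. IDH1 had a log2 fold change of -0.05 with a 95% interval of -0.61 to 0.51 (edgeR adjusted p = 0.907). For IDH1 and IDH2 the AE knockdown replicates differed from each other by more than the group means did, so that a change of either sign within these intervals was not detectable here.

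**Figure D3:**
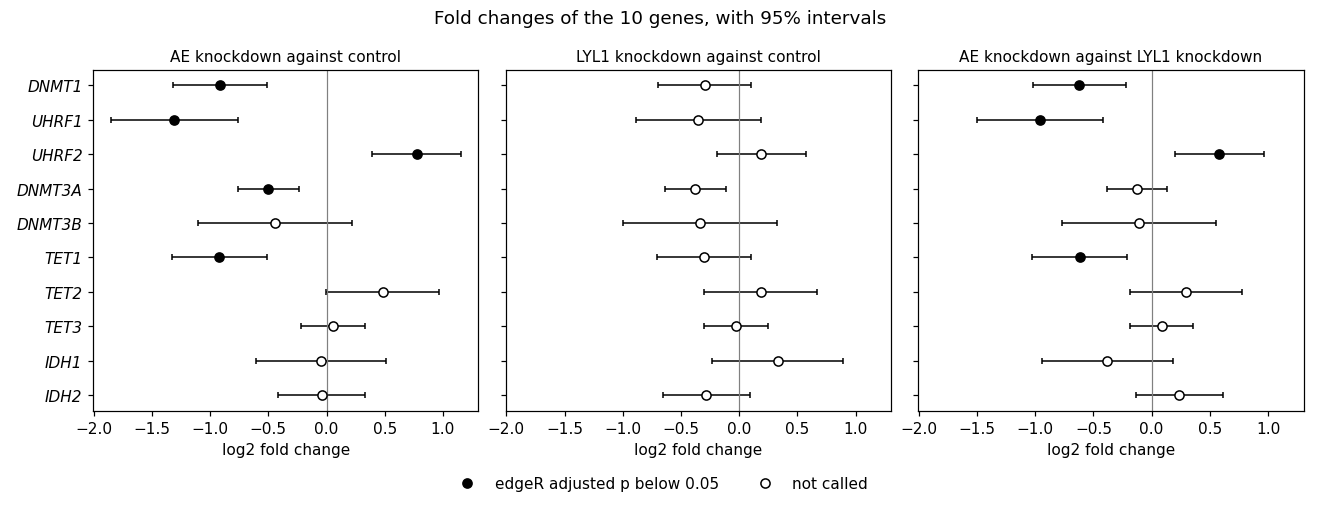
Log2 fold change (horizontal axis) of each gene in the 3 comparisons, with 95% intervals from the edgeR standard errors; filled points have an edgeR adjusted p below 0.05. With AE knockdown against control UHRF1 lies at -1.31, DNMT1 and TET1 at -0.92, DNMT3A at -0.50 and UHRF2 at 0.77, and with LYL1 knockdown against control no point is filled.

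LYL1 knockdown against control asks whether LYL1, a partner of the AE complex, acts on the same genes. It shares its controls with the comparison above. LYL1 itself, at 80.3, 98.3 and 43.9 CPM with its shRNAs, against 172, 172 and 143 CPM in the controls, was not called (log2 fold change -1.13, edgeR adjusted p = 0.63). The lack of a call thus says little about a gene in this comparison. None of the 10 genes was called by edgeR, and 1 of them, DNMT3A, had an unadjusted p below 0.05, as did 4.66% of all genes tested. DESeq2 and limma-voom called none of the 10 either. Of all genes tested edgeR called 0.0136%, with 0.00678% higher and 0.00678% lower. DNMT3A lay at 107, 112 and 107 CPM with shRNAs 538, 540 and 542, against 137, 142 and 145 CPM in the controls. These values lay between 75.6% and 79.6% of the control mean and were all below the controls. DNMT3A thus had a log2 fold change of -0.38 with an SE of 0.12 (edgeR adjusted p = 0.844), beside -0.50 in the AE comparison.

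UHRF1 lay at 104, 99.2 and 104 CPM with LYL1 knockdown, against 118, 126 and 148 CPM in the controls (log2 fold change -0.35, 95% interval -0.89 to 0.19, edgeR adjusted p = 1). DNMT1 lay at 419, 420 and 381 CPM, against 512, 494 and 492 CPM in the controls (log2 fold change -0.30, 95% interval -0.70 to 0.10). IDH2 lay at 273, 311 and 269 CPM, against 348, 362 and 327 CPM in the controls (log2 fold change -0.28, 95% interval -0.66 to 0.09). With DNMT3A and DNMT3B, these made 5 of 10 genes whose LYL1 knockdown libraries were all below the controls, where 8.17% of all genes tested were. No gene of the 10 lay wholly above them, as 8.41% of all genes tested did, and 16.6% of all genes tested did not overlap in either direction. The replication sum was 5538, 5560 and 5394 CPM with LYL1 knockdown, also below the 3 controls. Relative to the mean log2 level of the replication genes, UHRF1 differed from the controls by -0.20 and DNMT1 by -0.15. Both ratios lay below the controls in every LYL1 knockdown library. Each exact permutation test gave p = 0.1, the smallest possible (adjusted p = 0.191). The part of the replication level in these values was not tested further.

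IDH1 differed between the LYL1 knockdown libraries, at 60.0, 63.8 and 120 CPM with shRNAs 538, 540 and 542. Each shRNA had 1 library, so shRNA and library cannot be told apart. The first pair lay near the controls of 63.4 to 65.4 CPM, and the last, in the library with the lowest LYL1, was far above them. That library also held RUNX1T1 at 121% and RUNX1 at 141% of the control mean. The IDH1 log2 fold change of 0.33 (95% interval -0.23 to 0.89) thus rests on 1 library, and without it the log2 fold change was -0.06. The log2 ratio of IDH1 to IDH2 was -2.18, -2.28 and -1.17 with LYL1 knockdown, all above the -2.46, -2.47 and -2.34 of the controls (difference 0.54, exact permutation p = 0.1, the smallest possible). This ratio too rests mainly on shRNA 542, and without it the difference was 0.19. DNMT3B lay at 14.7, 20.2 and 17.4 CPM, against 22.1, 20.6 and 23.3 CPM in the controls (log2 fold change -0.34). TET1, TET2, TET3 and UHRF2 overlapped the controls, at log2 fold changes of -0.30, 0.19, -0.03 and 0.19. The UHRF1 to UHRF2 log2 ratio was 1.78, 1.27 and 1.57 with LYL1 knockdown, below the 1.91, 2.02 and 2.26 of the controls (difference -0.53, exact permutation p = 0.1, the smallest possible).

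AE knockdown against LYL1 knockdown tests whether the responses differ. UHRF1, DNMT1 and TET1 were lower and UHRF2 higher with AE knockdown, which is 4 of 10 genes called by edgeR, against 19.9% of all genes tested (10.5% higher and 9.45% lower). The same 4 genes did not overlap between the groups, as 35.5% of all genes tested did not, 18.2% above and 17.2% below. At an unadjusted p below 0.05 were 35.9% of all genes tested. UHRF1 lay at 52.7 ± 21.1 CPM with AE knockdown and 102 ± 2.75 CPM with LYL1 knockdown (SD, n = 3), a log2 difference of -0.96 (edgeR adjusted p = 0.0229). DNMT1 differed by -0.62 (edgeR adjusted p = 0.0354), TET1 by -0.62 (edgeR adjusted p = 0.0378) and UHRF2 by 0.58 (edgeR adjusted p = 0.0371). DNMT3A lay at 99.8 ± 9.54 CPM with AE knockdown and 109 ± 3.06 CPM with LYL1 knockdown, a log2 difference of -0.13 with a 95% interval of -0.39 to 0.14. The 4 calls depend on single libraries: none of them held without shRNA 538 or without shRNA 542, 1 without shRNA 540, 1 without control replicate 1, 2 or 3 in turn, 2 without AE knockdown replicate 3, and none in a fit of only the 6 libraries compared. The 4 log2 differences kept their sign in all 14 alternatives.

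Levels can be ordered between genes only per length, taken here as the union of exons in a GENCODE annotation of GRCh38, which is not the annotation of the files. In the controls IDH2 was highest at 123 ± 6.22 CPM per kilobase, then DNMT1 at 51.0 ± 1.15, UHRF1 at 25.4 ± 2.97 and IDH1 at 13.7 ± 0.207 (SD, n = 3). DNMT3A at 11.8 ± 0.312 and TET1 at 11.6 ± 0.944 CPM per kilobase did not differ beyond their spread. TET3 followed at 6.66 ± 0.262, then DNMT3B at 4.76 ± 0.291 and TET2 at 4.59 ± 0.279, which again lay within their spread, and UHRF2 was lowest at 3.13 ± 0.0321 CPM per kilobase. With AE knockdown IDH2 at 119 ± 27.9 and DNMT1 at 27.0 ± 6.92 CPM per kilobase were still the highest. TET1 then lay at 6.11 ± 1.48, within the spread of TET3, TET2 and UHRF2 at 6.93 ± 0.202, 6.40 ± 2.41 and 5.36 ± 1.17 CPM per kilobase.

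The partners of these enzymes were read as 8 lists with 109 tested genes. With AE knockdown 7 rose and 12 fell (edgeR), which is 17.4% called against 21.3% of all genes tested. DESeq2 called 7 higher and 22 lower, and limma-voom 7 higher and 19 lower. Without AE knockdown replicate 3 edgeR called 7 higher and 14 lower, and without control replicate 1, 2 or 3 it called 3 higher and 5 lower each time. As the calls over all genes ranged from 869 to 4135 over the alternatives, these list counts do not show a larger or smaller share than that of all genes. Of the 19 called genes, 8 were also called by DESeq2, by limma-voom and without each of the 9 libraries in turn, namely USP7, NSD1, BAZ2A, KMT2A, FBXL19, SPI1, SDHC and MDH1. Of 11 partners of maintenance methylation 2 fell and none rose. They were USP7, a deubiquitinase that binds DNMT1 and UHRF1, at 164 ± 29.1 CPM with AE knockdown and 295 ± 10.9 CPM in controls (SD, n = 3, log2 fold change -0.85, edgeR adjusted p = 0.00552), and the DNA ligase LIG1 (-0.63, edgeR adjusted p = 0.0492). The LIG1 call was lost without any of 8 of the 9 libraries, AE knockdown replicate 2 being the other. Of 7 partners of de novo methylation 3 fell and none rose. These were NSD1, NSD2 and NSD3, which methylate histone H3 at lysine 36, a mark that DNMT3A reads, at log2 fold changes of -0.73, -0.57 and -0.44. The list medians were -0.28 and -0.37.

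Among 14 readers of methylated CpG and their partners, the glycosylase MBD4 rose (0.46) and the reader MBD2 (-0.67) and the nucleolar silencing factor BAZ2A (-0.56) fell. Of 7 CXXC proteins, which bind unmethylated CpG, KMT2A (-0.91) and FBXL19 (-0.93) fell and none rose. KMT2A, a histone H3 lysine 4 methyltransferase, lay at 64.0 ± 11.2 CPM with AE knockdown and 120 ± 0.731 CPM in controls (SD, n = 3). Of 13 genes of oxidised base repair SMUG1, a uracil glycosylase, rose (0.76) and none fell. Of 8 TET partners SPI1, the factor PU.1 that binds TET2, rose (1.14) and DCAF1, a ubiquitin ligase subunit, fell (-0.67).

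Among 28 genes of the citrate cycle and 2-oxoglutarate supply 3 rose and none fell, SDHC, MDH1 and SDHD, while the other 25 were not called. SDHD, a subunit of succinate dehydrogenase, lay at 71.8 ± 4.56 CPM with AE knockdown and 38.9 ± 2.24 CPM in controls (SD, n = 3, log2 fold change 0.88, edgeR adjusted p = 0.0213). MDH1, the cytosolic malate dehydrogenase, lay at 219 ± 6.76 CPM with AE knockdown and 138 ± 4.33 CPM in controls (SD, n = 3, log2 fold change 0.67). Among 21 genes of the methyl donor cycle SHMT2 (-0.64) and MTR (-0.52) fell, both enzymes of folate metabolism. With LYL1 knockdown edgeR called none of the 109 genes, 2 had an unadjusted p below 0.05, and DESeq2 and limma-voom called none. Between AE and LYL1 knockdown edgeR called 7 higher and 12 lower, which is 17.4% against 19.9% of all genes tested.

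**Figure D4:**
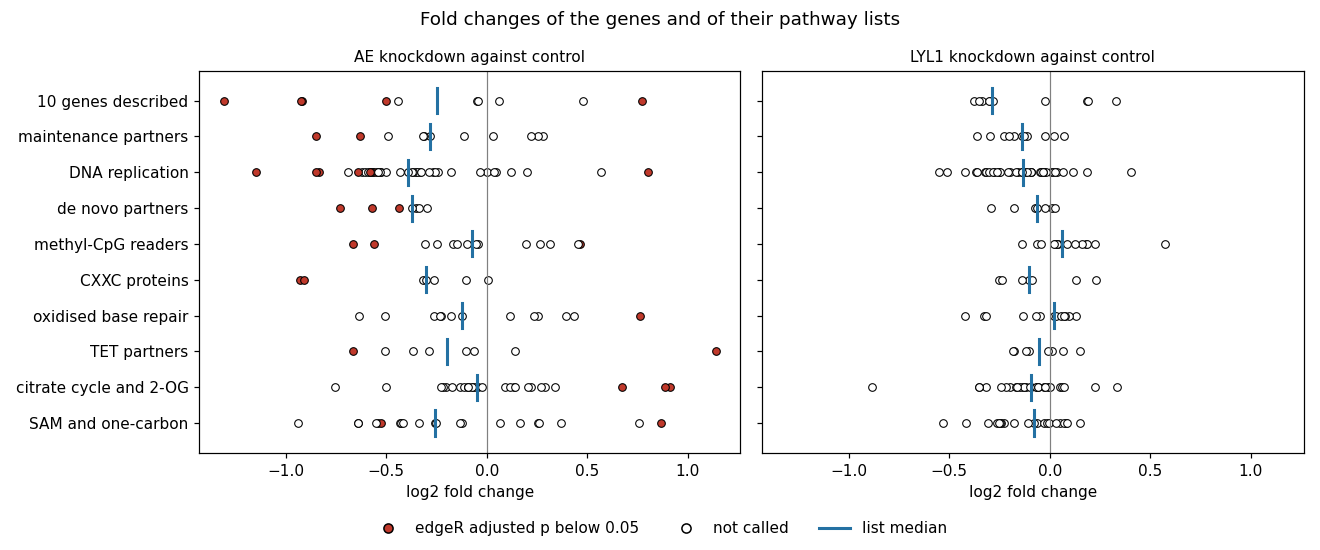
Log2 fold change (horizontal axis) of the 10 genes and of the tested genes of 9 lists (rows), with AE knockdown and with LYL1 knockdown against control; each point is a gene, red where the edgeR adjusted p is below 0.05, and blue bars are medians. With AE knockdown the median is -0.25 for the 10 genes and -0.39 for the 39 replication genes, against 0.05 over all genes tested, and with LYL1 knockdown no point is red.

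The genes most like each member were found by the Pearson correlation of log2 CPM over the 9 libraries among the 10039 genes whose log2 CPM averaged 2 or more. These values describe the 9 libraries, include the differences between groups, and carry no test. UHRF1 was most like FTSJ3, DHX38 and TAF15 (r of 0.99 each), and TPX2 and THRAP3 were among those most like DNMT1 (0.99 each). TET1 was most like SHB (0.99), PLEKHO1 (0.99) and RBM10 (0.98), and UHRF2 most like OSTC (0.99), ZNF596 (0.99) and ERMAP (0.98). DNMT3A was less closely matched, with MARK4 first at 0.95, and so were TET3, with ZNF143 at 0.92, and IDH2, with DOP1B at 0.95. Among the members themselves DNMT1 and TET1 were most alike (0.98), followed by DNMT1 and UHRF1 (0.96). The most opposed were DNMT3B and TET2 (-0.98), and AE knockdown replicate 3 held both the lowest DNMT3B and the highest TET2 of the 9 libraries.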

How the data were processed

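RNA was sequenced in 9 Kasumi-1 libraries, 3 per group. The authors deposited raw read counts per gene symbol, 1 file per library, with no normalisation. The submitters' processing notes name build hg19 and the tools featureCounts 2.0.1, HISAT2 2.2.0, fastp 0.20.1, DESeq2 1.26.0 and SAMtools 1.7 without their roles. The annotation, strand setting and treatment of multi-mapped reads are not given in the sources used here, so reads of antisense or near-identical copies cannot be told apart. Rows named for such copies were low (IDH1-AS1 at most 10 counts, TET2-AS1 and TET1P1 0, UHRF2P1 at most 1).

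In 6 files 5 gene names carried a decimal suffix, which was removed. Genes were kept with filterByExpr, scaled with TMM and tested with edgeR 4.0.16 (R 4.3.3) quasi-likelihood tests, all 9 libraries in one group-means model, Benjamini-Hochberg over 14741 genes. The standard error is the log2 fold change divided by the square root of F. Log2 ratios added 0.5 counts. Alternatives were median-of-ratios scaling, no low-count filter, DESeq2 1.42.0, limma-voom 3.58.1 with a weight per group, the 6 libraries compared, a replicate block and each library left out. For the partner lists and replication genes, DESeq2, limma-voom and leaving out each library were added after seeing the data.

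The members and lists were chosen with earlier results of these data known. All members and the knockdown targets are named, with up to 4 called genes of smallest adjusted p per list and the 3 genes most correlated with each member. Some genes that this rule would name are not reported here. Promoter sequences are from RefSeq, GRCh38.p14. Gene coordinates in the files' build are not given here.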

Additional observations from a re-analysis of the deposited data

How the results depend on the processing

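With AE knockdown against control, UHRF1, DNMT1 and TET1 were called under all 15 alternatives, with log2 fold changes of -1.63 to -1.05, -1.07 to -0.74 and -1.05 to -0.75. DNMT3A was called in 11 of 15 and UHRF2 in 12 of 15, with the same sign in all. The members called numbered 3 to 5 when 1 library was left out. Among all genes the calls were 869 to 4135 when 1 library was left out, with 1019, 869 and 948 without control replicate 1, 2 or 3. Replicate numbers are shared by AE and control libraries, but the labels name no pairs. The deviations of same-numbered libraries correlated at only -0.01 to 0.03, and they were not treated as pairs. With 3 libraries a group this cannot exclude pairing. A replicate block gave 1439 calls and left 4 of the members called, DNMT3A having an adjusted p of 0.0672. With LYL1 knockdown against control no alternative called a member. Over all genes, where edgeR called 2, the calls were 128 with no low-count filter, 33 with DESeq2, 25 with limma-voom, 15 with only the 6 libraries compared, and 1 to 11 when 1 library was left out. Between AE and LYL1 knockdown the calls over all genes, 2940 at first, were 1685 with limma-voom, 823 with only the 6 libraries compared, and 1357 to 3917 when 1 library was left out. The 4 members called there became 2 with limma-voom and 0 with only the 6 libraries compared, and 0 to 4 when 1 library was left out. The causes were not tested. The 19 partner and 7 replication genes called with AE knockdown kept their sign in all 11 alternatives run for them. No difference in a log2 ratio within a library moved by more than the SD between libraries, pooled over the groups compared. Leaving out 1 of 3 libraries cannot move a difference by more than that SD, so this says nothing about stability. The TET2 to TET3 difference with AE knockdown was 0.07 to 0.53 when 1 library was left out, and the IDH1 to IDH2 difference was 0.19 to 0.74 with LYL1 knockdown and -0.23 to 0.20 with AE knockdown. With 3 libraries a group, and AE knockdown libraries that vary more (biological coefficient of variation 31.4%, against 7.56% in controls), the 95% intervals of TET2, DNMT3B, TET3, IDH1 and IDH2 in that comparison include 0.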
